A study of Caenorhabditis elegans with 12 samples.

Results

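The 9 aspartyl protease genes asp-1, asp-2, asp-3, asp-4, asp-5, asp-6, asp-8, asp-13 and asp-14 of Caenorhabditis elegans were followed in 12 mRNA libraries of starved, arrested L1 larvae. They were taken by name from the symbol column of the authors' table of daf-2 RNAi over empty vector and joined by sequence name to the count tables, which list 44968 genes. By sequence name they are Y39B6A.20 (asp-1), T18H9.2 (asp-2), H22K11.1 (asp-3), R12H7.2 (asp-4), F21F8.3 (asp-5), F21F8.7 (asp-6), F59D6.3 (asp-8), F28A12.4 (asp-13) and K10C2.3 (asp-14). There are 12 asp-named genes in the authors' table and 19 among the counted genes, and asp-9, asp-10 and asp-12 of the authors' table were not members. The parents fed for 72 h on HT115 bacteria making double-stranded RNA against daf-2 (4 libraries), against pitr-1 (4 libraries) or carrying the empty vector (4 libraries). Every animal, controls included, was hrde-1(tm1200). hrde-1 encodes a nuclear Argonaute of inherited silencing, daf-2 the insulin/IGF receptor, and pitr-1 a relative of PiT-family phosphate transporters. Embryos freed by bleaching hatched without food and the larvae were frozen about 24 h later. Only progeny were sequenced, as whole larvae, so the tissue of a change was not measured, and fewer cells of a type and less RNA per cell cannot be told apart.

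Pepsin-like aspartyl proteases cut proteins at acid pH with a pair of catalytic aspartates; cathepsin D of lysosomes is the best known relative. In the worm gut such enzymes serve digestion of bacteria in the lumen and breakdown of protein in acidified granules. asp-1 is a cathepsin D-like gene known for transcription in the intestine. asp-3 and asp-4 encode lysosomal proteases known to act downstream of calcium and calpains in necrotic death of neurons. The other members are known here mainly by sequence family.

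Counts assigned to genes were 9640590 to 10502750 per daf-2 RNAi library, 5907286 to 10345381 per pitr-1 RNAi library and 7737184 to 11490429 per empty vector library, and ribosomal RNA took 16.1% to 47.1% of them. CPM is edgeR's read count scaled to the TMM-adjusted library size. The library kit does not mark strand, so reads from an antisense transcript cannot be told apart from those of a member. Replicates 1 and 3 stood apart from replicates 2 and 4 in every RNAi group: mitochondrial transcripts took 2.67% to 5.51% of gene counts in replicates 1 and 3 and 0.606% to 0.950% in replicates 2 and 4. Summed intestine markers, 11 of 12 listed names found and none at 0, were 1208 to 1840 CPM in daf-2 RNAi, 1259 to 1583 CPM in pitr-1 RNAi and 1566 to 1694 CPM in empty vector libraries.

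Aspartyl protease RNA was abundant in larvae that had not fed. The 9 genes together took 0.788% to 1.55% of the daf-2 RNAi gene counts other than ribosomal RNA, 0.852% to 1.46% of those of pitr-1 RNAi and 1.16% to 1.47% of those of empty vector. asp-6, asp-1, asp-5 and asp-3 made up 89.6% to 95.5% of that sum in every library, and asp-6 alone 39.4% to 47.7%.

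Levels between genes were compared as CPM per kilobase of annotated exon. asp-6 averaged 2992 ± 499 CPM per kilobase over the 12 libraries (SD), rank 38 of 13864 protein-coding genes tested, and asp-1 averaged 1820 ± 386, rank 75. asp-6 was above asp-1 in 12 of 12 libraries, although their ranges over all libraries overlapped. asp-5 and asp-3 followed at 812 ± 78.0 and 805 ± 121 CPM per kilobase, ranks 140 and 141, and were not ordered by these data: asp-5 was the higher in 8 of 12 libraries.

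The necrosis partner of asp-3, asp-4, came next at 167 ± 30.9 CPM per kilobase. It was above asp-2, at 132 ± 21.1, in 10 of 12 libraries. asp-14 averaged 43.4 ± 12.2 and asp-13 averaged 29.9 ± 8.24 CPM per kilobase, with asp-14 the higher in 11 of 12 libraries. asp-8 was the lowest at 5.21 ± 2.84 CPM per kilobase and rested on 10 to 121 reads per library, so its values carry the largest counting error of the family. The ranges over 12 libraries of asp-1 and asp-5, of asp-3 and asp-4, of asp-2 and asp-14, and of asp-13 and asp-8 did not overlap, which left steps between 4 groups of levels and the single low gene asp-8.

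**Figure D1:**
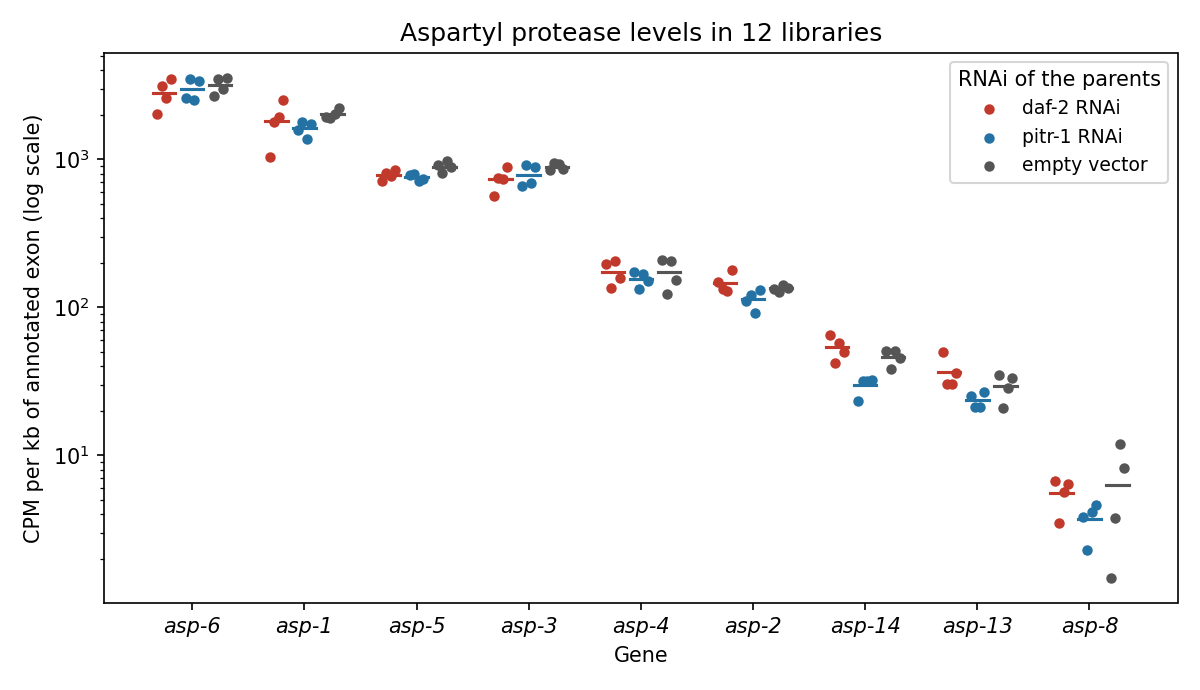
CPM per kilobase of annotated exon (log scale) of the 9 aspartyl protease genes in each library, ordered by mean; points are libraries, short lines the means of the 4 libraries of a group. asp-6 averages 2992 and asp-8 averages 5.21 CPM per kilobase, and asp-5 and asp-3 lie at the same height.

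By gene order in the RefSeq table of assembly WBcel235, several members sit in runs of related genes. Counting protein-coding genes only, asp-5, asp-12 and asp-6 are consecutive, asp-8 adjoins asp-7, and asp-1 is followed by asp-15, asp-16 and asp-17. Pseudogenes and noncoding genes were left out of this order. The neighbours were low: asp-12 averaged 9.97 CPM, asp-7 averaged 0.394 CPM, and asp-15, asp-16 and asp-17 averaged 0.169, 1.71 and 0.558 CPM. How reads were split between similar copies was not analysed here. The deposited summary entry for reads without a unique alignment was 0% in all 12 libraries, which does not show how such reads were treated before counting. The ambiguous entry, 4.59% to 8.45% of reads per library over all genes, is for reads overlapping more than 1 gene and does not measure similar copies.

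The daf-2 RNAi comparison asks how aspartyl protease RNA in the progeny differs when the insulin receptor was targeted in the parents. No member passed the test. The 4 most abundant genes and asp-8 lay below empty vector and asp-2, asp-4, asp-13 and asp-14 above it, and the 9 log2 fold changes had a median of −0.15, against 0.0048 over the 14664 genes tested. Fold changes ran from 0.821 for asp-3 to 1.25 for asp-13, and the ranges of the groups overlapped for all 9 members.

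asp-3 stood at 825, 1092, 1070 and 1297 CPM in daf-2 RNAi replicates 1 to 4, against 1237, 1372, 1349 and 1262 CPM in the empty vector libraries. It was lower in 3 of 4 same-numbered pairs, and the ranges overlapped through replicate 4 of daf-2 RNAi. The log2 fold change of asp-3 was −0.29 ± 0.19 (SE, n = 4 each), with a 95% interval of −0.69 to 0.12.

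asp-1 stood at 1233, 2138, 2300 and 3012 CPM in daf-2 RNAi and at 2303, 2259, 2418 and 2656 CPM in empty vector libraries. The 4 empty vector values lay close together, while daf-2 RNAi held the lowest and the highest level of the gene in the series. The log2 fold change was −0.15 ± 0.24 (95% interval −0.66 to 0.36), and 0.0433 without daf-2 RNAi replicate 1, so its sign rests on that library.

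asp-6 stood at 2588, 3972, 3309 and 4448 CPM in daf-2 RNAi, against 3423, 4441, 3815 and 4507 CPM in empty vector. Within each replicate number the daf-2 RNAi library was the lower, in 4 of 4 pairs, a pattern that 7.86% of all genes tested showed. Its log2 fold change was −0.18 ± 0.22 (95% interval −0.65 to 0.29). asp-5 was 887 to 1047 CPM in daf-2 RNAi and 995 to 1199 CPM in empty vector libraries, with overlapping ranges and a log2 fold change of −0.18 ± 0.16. No member had ranges that did not overlap in this comparison, against 1.55% of all genes in the higher direction and 1.07% in the lower.

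asp-13 and asp-14 lay on the other side. asp-13 stood at 59.6, 35.9, 36.3 and 43.2 CPM in daf-2 RNAi and 41.8, 25.1, 33.95 and 39.4 CPM in empty vector libraries, higher in 4 of 4 pairs, as were 8.63% of all genes tested. Its log2 fold change was 0.32 ± 0.22 (95% interval −0.14 to 0.79). asp-14 was also higher in 4 of 4 pairs, with ranges that overlapped and a log2 fold change of 0.21 ± 0.19.

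asp-2, asp-4 and asp-8 showed the smallest or least certain differences. asp-2 averaged 203 ± 32.04 CPM in daf-2 RNAi and 186 ± 8.26 CPM in empty vector, and asp-4 averaged 254 ± 49.0 and 252 ± 61.7 CPM in the same groups (SD, n = 4 each). The low gene asp-8 stood at 8.16, 4.25, 6.86 and 7.81 CPM in daf-2 RNAi and at 1.83, 4.62, 14.6 and 10.02 CPM in empty vector libraries. Its empty vector values spanned the whole range of the gene in the series, and the 95% interval of its log2 fold change ran from −1.22 to 0.81.

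In this comparison the edgeR quasi-likelihood test called 0 of 9 members (Benjamini-Hochberg adjusted p = 1.00 for each), against 0.0341% of all genes. At an unadjusted p under 0.05 there were 0 of 9 members and 3.59% of all genes. DESeq2 called 0 of 9 members and 0.348% of all genes, and edgeR with the replicate number as a block 0 of 9 members (adjusted p 0.591 to 0.988) and 0.314% of all genes. With the replicate block the 95% intervals of asp-3 (−0.60 to −0.0091) and asp-13 (0.0017 to 0.63) excluded 0, without passing the adjusted test. A missed threshold does not show that levels were equal; the intervals above bound the differences. Of the intestine markers 10 of 11 lay below 0 here, against 49.3% of all genes. Their median log2 fold change was −0.18 and none was called without the block (1, pept-1, with it). Germline and maternal markers had 6 of 6 log2 fold changes above 0, with a median of 1.26 and 0 called with or without the block. They summed to 29.97 to 143 CPM in daf-2 RNAi and 19.7 to 51.6 CPM in empty vector libraries. The part of these lists in the members' values was not tested.

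**Figure D2:**
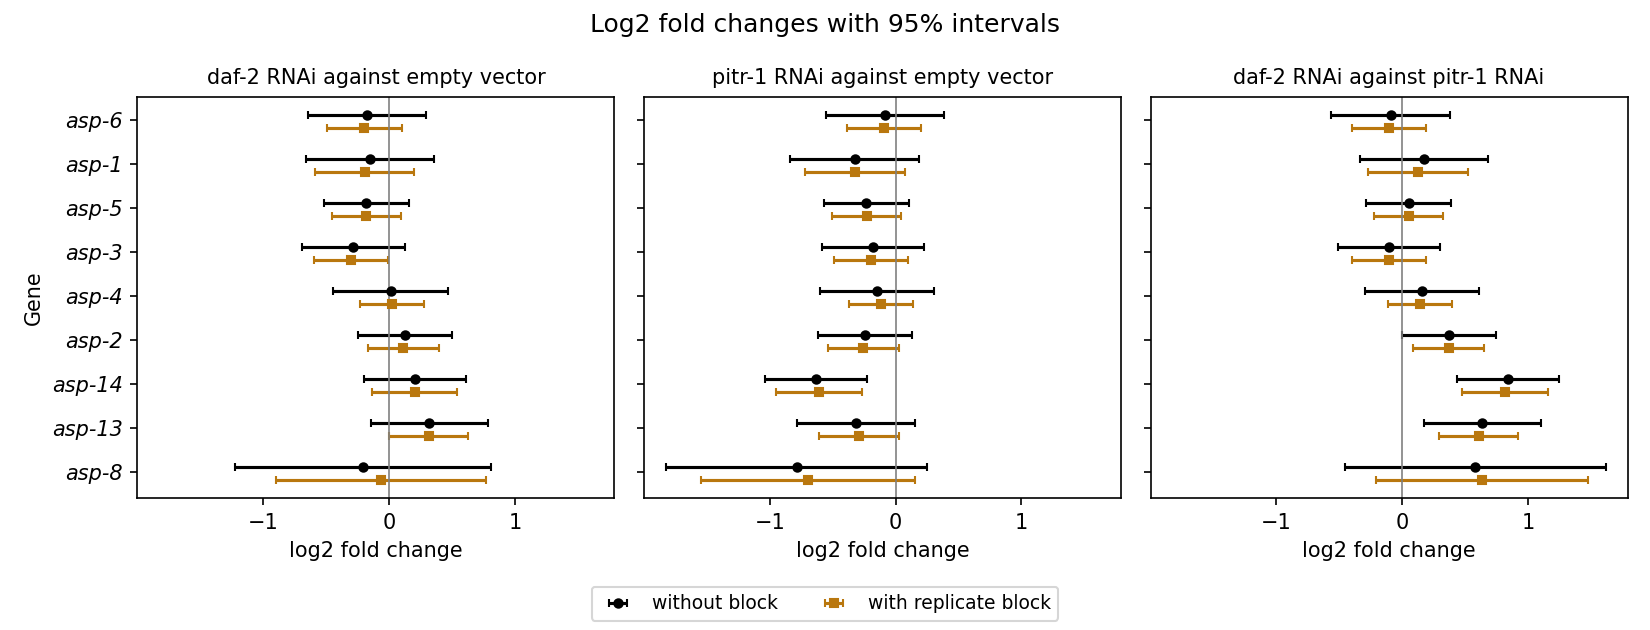
Log2 fold changes (x axis) of the 9 genes (y axis) in 3 comparisons, with 95% intervals from the edgeR fit without (black circles) and with (ochre squares) the replicate block. All 9 points lie below 0 for pitr-1 RNAi against empty vector, where the interval of asp-14 excludes 0 in both fits, as do those of asp-14 and asp-13 for daf-2 RNAi against pitr-1 RNAi, and no member passed the adjusted edgeR test in either fit.

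The pitr-1 RNAi comparison asks the same for the targeted phosphate transporter relative. All 9 members lay below empty vector, by log2 fold changes of −0.0845 for asp-6 to −0.79 for asp-8 and a median of −0.24, against a median of 0.0222 over all genes, of which 46.5% lay below 0. asp-14 had the clearest difference, at 0.645 of the empty vector level. None passed the test across all genes. The 9 values come from the same 8 libraries and are not independent of each other.

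asp-14 stood at 28.3, 38.3, 38.5 and 39.1 CPM in pitr-1 RNAi replicates 1 to 4, against 61.5, 46.5, 61.4 and 55.1 CPM in empty vector. All pitr-1 RNAi libraries lay below all empty vector libraries. The log2 fold change was −0.63 ± 0.19 (SE, n = 4; 95% interval −1.04 to −0.23), and the differences within pairs were −0.28 to −1.12 on the log2 CPM scale.

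asp-1 stood at 1886, 2138, 1629 and 2044 CPM in pitr-1 RNAi and at 2303, 2259, 2418 and 2656 CPM in empty vector libraries. asp-5 stood at 976, 987, 885 and 917 CPM in pitr-1 RNAi and at 1126, 995, 1199 and 1103 CPM in empty vector libraries. Neither pair of ranges overlapped, although replicate 2 of asp-5 differed by −0.0108 on the log2 CPM scale within its pair. The log2 fold changes were −0.32 ± 0.24 for asp-1 (95% interval −0.84 to 0.19) and −0.23 ± 0.16 for asp-5 (−0.57 to 0.11).

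Thus 3 of 9 members, asp-14, asp-1 and asp-5, had lower and non-overlapping ranges, against 0.614% of all genes tested in that direction; 0 of 9 had higher, non-overlapping ranges, against 0.736%. asp-2 and asp-6 were also lower in 4 of 4 same-numbered pairs, as were 6.03% of all genes (6.23% were higher in 4 of 4), but their ranges overlapped. asp-2 averaged 157 ± 24.1 CPM in pitr-1 RNAi against 186 ± 8.26 CPM in empty vector libraries (SD, n = 4 each). For asp-6 the groups were close, at 3817 ± 642 CPM in pitr-1 RNAi and 4047 ± 520 CPM in empty vector.

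asp-3, asp-4, asp-8 and asp-13 were lower in 3 of 4 pairs. asp-3 averaged 1153 ± 188 CPM in pitr-1 RNAi and 1305 ± 65.5 CPM in empty vector; asp-4 averaged 227 ± 25.8 and 252 ± 61.7 CPM in the same groups (SD, n = 4 each). asp-13 stood at 29.8, 25.4, 25.2 and 32.1 CPM in pitr-1 RNAi, all inside the empty vector range of 25.1 to 41.8 CPM. asp-8 stood at 4.71, 2.78, 5.03 and 5.60 CPM in pitr-1 RNAi, inside its empty vector range of 1.83 to 14.6 CPM. The log2 fold changes of asp-13 and asp-8 were −0.32 ± 0.22 and −0.79 ± 0.49.

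The edgeR test called 0 of 9 members here (Benjamini-Hochberg adjusted p = 1.00 for each), against 0.00682% of all genes, which is asp-10 alone. At an unadjusted p under 0.05 there was 1 of 9 members, asp-14 (edgeR unadjusted p = 0.00480 in a fit across all genes), against 1.73% of all genes. DESeq2 called 0 of 9 members and 0.00682% of all genes, and edgeR with the replicate block 0 of 9 members and 0.00682% of all genes. Of the intestine markers 9 of 11 lay below 0, against 46.5% of all genes, their median being −0.11, and 0 were called. Germline and maternal markers, 6 listed and none without counts, had 6 of 6 log2 fold changes above 0, with a median of 1.15 and 0 called. They summed to 25.4 to 153 CPM in pitr-1 RNAi and 19.7 to 51.6 CPM in empty vector libraries. The part of either list in the result was not tested.

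**Figure D3:**
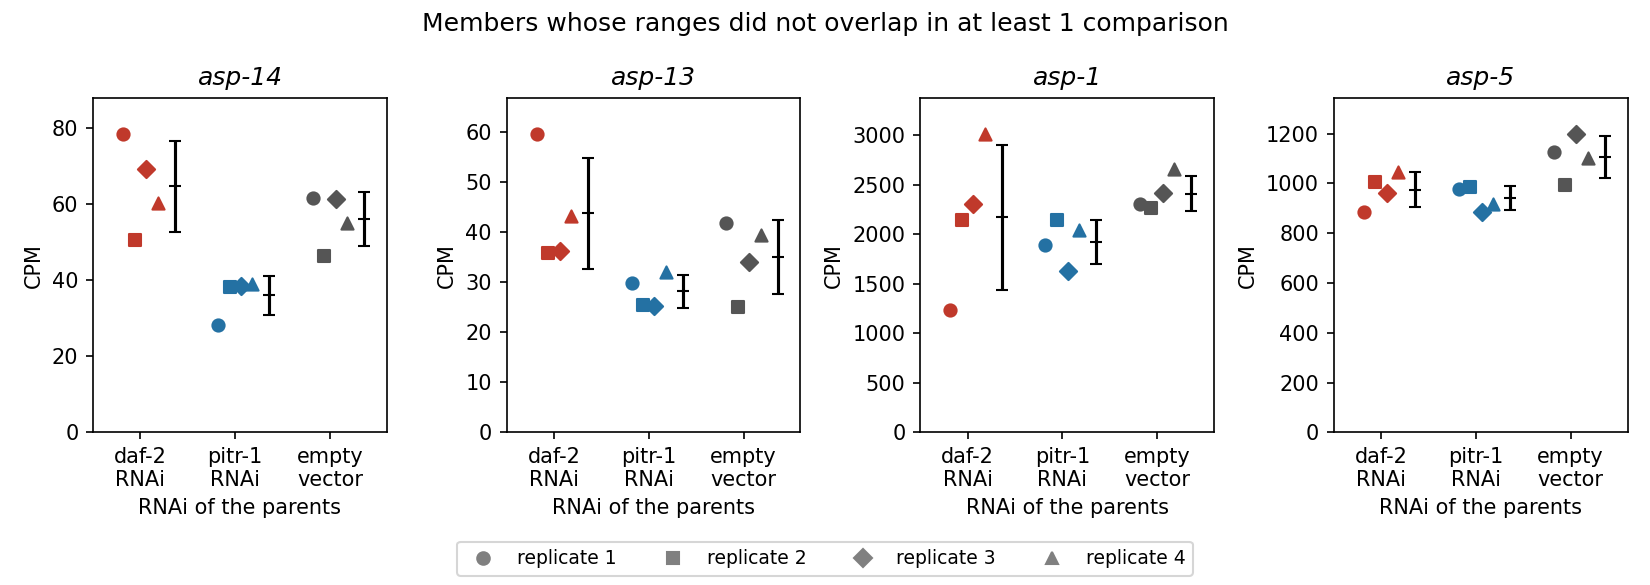
CPM of asp-14, asp-13, asp-1 and asp-5 in every library by RNAi group of the parents; marker shape gives the replicate number, and the black bar the mean ± SD of 4 libraries. The pitr-1 RNAi values of asp-14 reach 39.1 CPM, below the lowest daf-2 RNAi (50.7 CPM) and empty vector (46.5 CPM) values.

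The direct comparison of daf-2 RNAi with pitr-1 RNAi tests whether the treatments differ from each other without using the empty vector means. The ranges of asp-14 and asp-13 did not overlap. asp-14 stood at 78.6, 50.7, 69.4 and 60.3 CPM in daf-2 RNAi replicates 1 to 4, against 28.3, 38.3, 38.5 and 39.1 CPM in pitr-1 RNAi, with every daf-2 RNAi library above every pitr-1 RNAi library. It averaged 64.7 ± 11.96 CPM (SD) in the 4 daf-2 RNAi libraries and 36.04 ± 5.19 CPM in those of pitr-1 RNAi, a 1.79-fold difference. Its log2 fold change of 0.84 ± 0.19 had a 95% interval of 0.43 to 1.25, and the gene was higher in 4 of 4 pairs, as were 8.86% of all genes.

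asp-13 averaged 43.8 ± 11.1 CPM in the daf-2 RNAi libraries and 28.1 ± 3.38 CPM in those of pitr-1 RNAi (SD, n = 4 each), a 1.56-fold difference with a log2 fold change of 0.64 ± 0.22 (95% interval 0.17 to 1.11). The lowest daf-2 RNAi value, 35.9 CPM, lay above the highest pitr-1 RNAi value, 32.1 CPM. Thus 2 of 9 members had higher, non-overlapping ranges in daf-2 RNAi, against 1.04% of all genes, and none had lower ones, against 1.02%. asp-2, asp-4 and asp-8 were also higher in 4 of 4 pairs, with overlapping ranges and log2 fold changes of 0.37 ± 0.17, 0.16 ± 0.21 and 0.58 ± 0.48. With the replicate block the 95% interval of asp-2 was 0.0881 to 0.65.

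The 4 abundant members had small differences between daf-2 RNAi and pitr-1 RNAi. The log2 fold changes were −0.0926 ± 0.22 for asp-6 (95% interval −0.56 to 0.38), 0.17 ± 0.24 for asp-1 (−0.34 to 0.69), 0.0511 ± 0.16 for asp-5 (−0.29 to 0.39) and −0.11 ± 0.19 for asp-3 (−0.51 to 0.30). All 4 pairs of ranges overlapped, and none of the 9 members was lower in 4 of 4 pairs, against 8.82% of all genes.

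The edgeR test called 0 of 9 members between daf-2 RNAi and pitr-1 RNAi, against 0.0136% of all genes. The adjusted p of asp-14 was 0.569 in edgeR, 0.0728 in edgeR with the replicate block and 0.0230 in DESeq2, so the call depends on the test. With the block and without replicate 1 it was called by edgeR as well (adjusted p = 0.0350, log2 fold change 0.62); over all 20 alternatives its adjusted p was 0.0230 to 1.00 and its log2 fold change 0.52 to 1.14. DESeq2 called 1 of 9 members and 0.15% of all genes; edgeR with the block called 0 of 9 and 0.15% of all genes. At an unadjusted p under 0.05 there were 2 of 9 members, asp-14 and asp-13, against 2.23% of all genes.

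The authors' deposited table of daf-2 RNAi over empty vector, made with a batch correction, lists asp-3 at a log2 fold change of −0.30, asp-13 at 0.31 and asp-14 at 0.195, with false discovery rates of 0.723, 0.707 and 0.845. The authors' deposited table of pitr-1 RNAi over empty vector lists asp-14 at −0.62, asp-1 at −0.32 and asp-8 at −0.58, each with a false discovery rate of 0.999. No member is under a false discovery rate of 0.05 in either of the authors' deposited tables.

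For asp-1, asp-3, asp-4, asp-6 and asp-8 the share of variance between replicate numbers was larger than that between RNAi groups. These shares are not adjusted for the number of levels. There are 4 replicate numbers and 3 RNAi groups, which by itself gives the replicate numbers the larger share. The edgeR F test of replicate numbers did not call asp-1, asp-3 or asp-8 (adjusted p = 0.299, 0.252 and 0.180). The share between replicate numbers was largest for asp-4 and asp-6. asp-4 was higher in replicates 1 and 3 than in replicates 2 and 4 inside every RNAi group. Replicates 1 and 3 stood at 288 and 301 CPM in daf-2 RNAi, 251 and 245 CPM in pitr-1 RNAi and 307 and 299 CPM in empty vector libraries. Replicates 2 and 4 stood at 196.4 and 230.5 CPM in daf-2 RNAi, 195 and 218 CPM in pitr-1 RNAi and 179 and 222 CPM in empty vector libraries. asp-4 averaged 282 ± 28.5 and 281 ± 31.7 CPM over the 3 libraries of replicates 1 and 3, against 190.2 ± 9.65 and 224 ± 6.13 CPM in replicates 2 and 4 (SD, n = 3 each). Of the variance of its log2 CPM over 12 libraries, 85.5% lay between replicate numbers and 6.09% between RNAi groups.

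The edgeR F test of the 3 replicate coefficients called asp-4 (adjusted p = 0.0160) and no other member, against 26.6% of all genes called, so a share of 1 in 9 members is not above the background. The call was lost without daf-2 RNAi replicate 2 (edgeR adjusted p = 0.0737) or without empty vector replicate 2 (0.0984), and the adjusted p was 0.00470 to 0.0984 over the 12 omissions of a library. The values of replicates 1 and 3 lay above those of 2 and 4 without overlap inside each RNAi group, as in 12.5% of all genes.

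asp-6 ran the other way. It averaged 3110 ± 456 and 3443 ± 326 CPM in replicates 1 and 3, against 4275 ± 262 and 4428 ± 91.0 CPM in replicates 2 and 4 (SD, n = 3 each). Its values also did not overlap inside any RNAi group, a pattern 11.7% of all genes showed in that direction. The edgeR adjusted p of 0.0571 missed the threshold and was 0.0475 with ribosomal RNA removed; without pitr-1 RNAi replicate 1, empty vector replicate 1 or empty vector replicate 3 it was 0.0263, 0.0203 and 0.0426.

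asp-5 was level across replicate numbers, at 996 ± 121, 996 ± 9.06, 1015 ± 164 and 1022 ± 95.4 CPM in replicates 1 to 4 (SD, n = 3 each; edgeR adjusted p = 0.995), with 1.43% of its variance between replicate numbers and 57.8% between RNAi groups. For asp-14 these shares were 6.46% and 76.1%. The medians over the 9 members were 39.1% and 31.7%, against 49.0% and 9.73% over all genes tested. Some marker lists also differed between the replicate numbers: the 5 body wall muscle markers summed to 1639.85 to 2045 CPM in replicates 1 and 3 and 3102 to 4150 CPM in replicates 2 and 4, and the 5 pharynx markers to 894 to 1339 CPM and 1647 to 2081 CPM in the same replicates. The 11 intestine markers summed to 1208 to 1583 CPM in replicates 1 and 3 and 1477 to 1840 CPM in replicates 2 and 4, with overlap, and the 6 neuron markers to 946 to 1229.96 CPM and 1227 to 1403 CPM in the same replicates, also with overlap. Epidermis markers averaged 82.0, 77.8, 79.6 and 85.2 CPM in replicates 1 to 4, and germline and maternal markers 25.03, 87.2, 97.4 and 36.9 CPM, so neither list separated replicates 1 and 3 from 2 and 4. No list had a marker at 0 in all libraries of an RNAi group, and the lists' part in the levels of asp-4 and asp-6 was not tested.

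**Figure D4:**
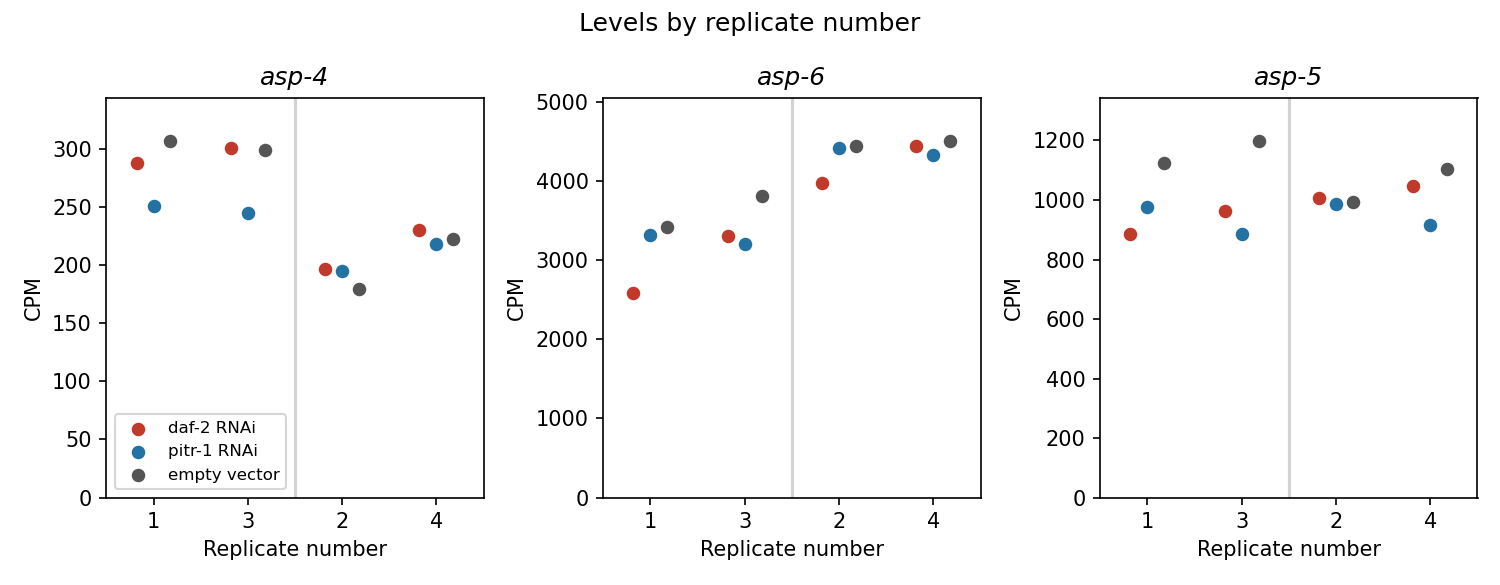
CPM of asp-4, asp-6 and asp-5 in each library by replicate number, with replicates 1 and 3 left of the grey line and 2 and 4 right of it; colours give the RNAi group of the parents. asp-4 lies higher on the left in every group and asp-6 lower, while asp-5 averages 996 to 1022 CPM at each replicate number.

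Other genes of protein breakdown are given from lists, by counts. Of 13 other aspartyl proteases and presenilins, 7 were tested; edgeR called 0 of them with daf-2 RNAi. With pitr-1 RNAi 6 of these 7 lay above 0 and 1 below, with a median log2 fold change of 0.74, while all 9 members lay below 0. Of all genes tested 46.5% lay below 0 there. The gene at that median averaged 0.806 CPM over all libraries, with an SE of 0.59. Some others of the 6 averaged 1.71 to 2.28 CPM, with SEs of 0.51 to 0.74. The difference in direction from the members thus rests in part on genes near the floor. asp-10 was the 1 called, higher in pitr-1 RNAi (log2 fold change 1.499 ± 0.18, edgeR adjusted p = 0.00924). In daf-2 RNAi all 12 of 12 papain-like cathepsins tested had log2 fold changes under 0, against 49.3% of all genes. Their median was −0.47 against 0.0048 over all genes. 1 of them, the cathepsin B-like cpr-4, passed the edgeR test, and with the replicate block cpr-1 did too. In pitr-1 RNAi 9 of 12 lay below, against 46.5% of all genes, with a median of −0.12 and none called.

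The vacuolar ATPase acidifies the compartments in which aspartyl proteases work. Against empty vector its 21 genes had a median log2 fold change of 0.0533 with daf-2 RNAi. With pitr-1 RNAi the median was −0.0252, and edgeR called 0 in either comparison. vha-2, the most abundant, averaged 1369 CPM over all libraries and had a log2 fold change of 0.19 in daf-2 RNAi. The 6 partners of asp-3 and asp-4 in necrotic death, of which the most abundant are the calcium-binding chaperone crt-1, the calpain clp-1 and the chaperone cnx-1, had log2 fold changes of 0.0406 to 0.23 with daf-2 RNAi. With pitr-1 RNAi they ran from −0.0971 to 0.11, and edgeR called 0 in either comparison.

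Regulators of gut and lysosome genes had 0 of 7 called in either comparison. Their log2 fold changes ran from −0.70 to 0.24 with daf-2 RNAi and from −0.20 to 0.37 with pitr-1 RNAi. With daf-2 RNAi 5 of 7 lay below 0, against 49.3% of all genes, and with pitr-1 RNAi 6 of 7, against 46.5%. The lowest with daf-2 RNAi was elt-2, also an intestine marker, at 8.03 ± 1.25 CPM against 13.1 ± 2.32 CPM in empty vector libraries (SD, n = 4 each). The most abundant was daf-16, the FOXO factor downstream of daf-2, with 241 ± 46.6 CPM in daf-2 RNAi, 239 ± 40.8 CPM in pitr-1 RNAi and 257 ± 44.6 CPM in empty vector libraries (SD, n = 4 each). hlh-30, the TFEB relative that regulates lysosome genes, averaged 161 ± 47.5 CPM in daf-2 RNAi, 179 ± 51.8 CPM in pitr-1 RNAi and 195 ± 58.2 CPM in empty vector libraries (SD, n = 4 each). Among peptide transporters and exopeptidases 9 of 10 genes had log2 fold changes under 0 with daf-2 RNAi, against 49.3% of all genes. With pitr-1 RNAi 9 of 10 did, against 46.5% of all genes. The oligopeptide transporter pept-1 was the 1 call among them, lower in daf-2 RNAi with the replicate block only (edgeR adjusted p = 0.0394). pept-1 is also one of the intestine markers, so the 2 lists are not separate.

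The genes outside the family whose log2 CPM followed a member most closely were found over 12 libraries among 9887 genes of at least 5 CPM. The libraries share the differences between replicate numbers, and Pearson's r is given as a description. High values were common: the 99th percentile of r over these genes ran from 0.61 for asp-2 to 0.90 for asp-6. asp-1 was closest to the ribosomal protein genes rpl-15 and rps-4 (r of 0.97 and 0.96), asp-3 to pghm-1 and C24G6.8 (0.94 and 0.93) and asp-14 to cyc-1, a cytochrome c1 of the respiratory chain, and F35E12.6 (0.91 and 0.89). asp-4 was closest to T11B7.5 and dhs-12 (0.97 and 0.95), and asp-6 to egl-23 and cmtr-1 (0.97 each). asp-13 was closest to B0252.3 and C05D12.1 (0.93 each), asp-8 to josd-1 and ZK688.7 (0.91 each), asp-5 to ZC443.2 and gldc-1 (0.86 each), and asp-2 to bcf-1 and fozi-1 (0.84 and 0.82).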

How the data were processed

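Polyadenylated RNA of arrested L1 larvae was sequenced with a kit that does not mark strand, per the labels' protocols. The authors deposited raw read counts per gene; Bowtie 1.2.2, HTSeq and edgeR appear in the submitters' processing notes. Their genome build is not given in the sources used here; coordinates are therefore left out. The authors also deposited tables with log2 fold changes, p-values, false discovery rates and an F statistic as a score, from edgeR with a batch correction per the file headers, whose variable is not stated; they were only set beside the values computed here.

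Counts without the 5 summary entries (per library 1.71% to 4.60% no feature, 4.59% to 8.45% ambiguous, 16.3% to 39.8% not aligned) were analysed with edgeR 4.0.16 in R 4.3.3: TMM, filterByExpr (14664 genes, all 9 members kept), and a robust quasi-likelihood fit of 12 libraries with 1 coefficient per group. Benjamini-Hochberg adjustment ran over all genes, with calls under 0.05, two-sided. SE is the absolute log2 fold change over the square root of F; intervals use the same SE. DESeq2 1.42.0 was an alternative. The scripts were tested on simulated data. Exon lengths came from Ensembl release 115 by gene identifier and may differ from the authors' annotation. log2 CPM used a prior count of 2.

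Replicate numbers were checked for pairing from the data: deviations from group means correlated at 0.137 to 0.505 when daf-2 RNAi was set beside empty vector, 0.104 to 0.508 with pitr-1 RNAi in its place, and 0.434 to 0.610 between daf-2 and pitr-1 RNAi, all over the limit of 0.1. The F test of replicate numbers used the additive model of group and replicate. All members are named. Other genes are named from lists if called, or otherwise as up to 3 of the highest mean CPM, or as neighbours of a member. elt-2 is named besides, for the lowest value of its list. For each member the 2 genes of highest r are named. Members, lists and the split of replicate numbers were chosen with earlier results of these data known. The labels call the libraries biological replicates and do not say whether a number marks a shared day.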

Additional observations from a re-analysis of the deposited data

Results flagged for a closer look

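asp-14 in pitr-1 RNAi replicate 1 stood at 28.3 CPM, apart from the other 3 libraries of that group at 38.3 to 39.1 CPM. The gap to the nearest library was a larger share of the group's range than Dixon's 95% critical value. It was the only such value among 27 combinations of gene and group, where chance flags about 1 in 20. This library had the fewest gene counts of the series (5907286) and 108 reads of asp-14. Without it the log2 fold change of asp-14 against empty vector was −0.53, against −0.63 with it, and against daf-2 RNAi 0.74, against 0.84.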

How the results depend on the processing

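Over 3 comparisons and the replicate test, 637 of 666 values of single members under an alternative kept their direction and side of the threshold, 17 changed sign, 10 passed the threshold and 2 lost it. For daf-2 RNAi against empty vector asp-1 was 0.0597 with replicates 2 and 4 only and −0.35 to 0.0433 over omissions of a library. asp-4 was −0.0295 with replicates 1 and 3 only, −0.0019 with the replicate block without replicate 2, and −0.118 to 0.122 over omissions; asp-8 was 0.34 and 0.0702 with the block without replicate 3 or 4, and −0.52 to 0.27 over omissions. For pitr-1 RNAi against empty vector asp-4 was 0.0377 with replicates 2 and 4 only. For daf-2 RNAi against pitr-1 RNAi asp-5 was −0.0033 with replicates 1 and 3 only, asp-1 −0.0237 with the block without replicate 4 and −0.0231 to 0.37 over omissions, asp-3 −0.21 to 0.0026 and asp-6 −0.21 to 0.0371 over omissions. The causes were not tested. The omissions of a replicate number from the block fit, and of a library from the replicate test, were chosen after seeing the data.

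Counts of called genes varied more. For daf-2 RNAi against empty vector 5 genes were called, 46 with the replicate block, 50 in DESeq2, 13 without a filter on low counts, 15 with replicates 2 and 4 only, 0 with replicates 1 and 3 only, 0 to 3 over omissions of a library, and 6 to 181 with the block over omissions of a replicate number. For pitr-1 RNAi against empty vector 1 was called, 1 with the block, 4 with replicates 2 and 4 only, 0 with replicates 1 and 3 only, 0 to 1 over omissions and 0 to 31 with the block over omissions. For daf-2 RNAi against pitr-1 RNAi 2 were called, 22 with the block, 22 in DESeq2, 6 without a filter, 0 with the 8 libraries of the compared groups, 25 with replicates 2 and 4 only, 0 with replicates 1 and 3 only, 0 to 2 over omissions, and 3 to 80 with the block over omissions. Against empty vector no member was called under any alternative; the block changed no call of a member. In the replicate test asp-13 was called without pitr-1 RNAi replicate 1, empty vector replicate 1 or empty vector replicate 3 (edgeR adjusted p = 0.0370, 0.0470 and 0.0476) and asp-8 without empty vector replicate 1 (0.0173). Depth limits asp-8 most.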
